A study of Mus musculus with 2 samples.

Results

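The genes described here encode the respiratory chain subunits that are made from nuclear DNA. Of the 31053 features counted in the deposited matrices, 94 were members by their symbols: those that begin with Ndufa, Ndufb, Ndufc, Ndufs, Ndufv, Uqcr, Cox4, Cox5, Cox6, Cox7, Cox8 or Atp5, plus Sdha, Sdhb, Sdhc, Sdhd and Cycs, without pseudogene symbols. They fell into 36 features of complex I, 8 of complex I assembly (the Ndufaf genes, which build complex I but are not part of it), 4 of complex II, 8 of complex III, 1 for cytochrome c, 20 of complex IV and 17 of complex V. Ndufa4 and its relative Ndufa4l2 were counted with complex IV, where the protein is now placed.

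The cells came from the ischemic brain of Foxp3Egfp mice aged 6 to 8 weeks, which carry GFP under control of Foxp3, a marker gene of regulatory T cells. They were sorted as CD45+CD11b+CD3-F4/80+, that is, as leukocytes with myeloid and macrophage surface proteins and without the T cell receptor complex, and all belong to 1 group of 2 replicate libraries. No untreated group was analysed here, so each comparison below is between kinds of cells within the same libraries. Whether each replicate came from its own animals is left unsaid by the labels, which mention combined cDNA of mice with stroke, and the p-values below may thus rest on technical spread alone. The submitters speak of infiltrated macrophages picked by low sorting signal.

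The respiratory chain sits in the inner mitochondrial membrane. Complex I (NADH dehydrogenase) and complex II (succinate dehydrogenase) pass electrons to ubiquinone, complex III passes them on to cytochrome c, and complex IV (cytochrome c oxidase) gives them to oxygen. The proton gradient built on the way drives complex V, the ATP synthase. The mitochondrial genome encodes a few core subunits of complexes I, III, IV and V, and all other subunits are imported from the cytosol, so each of these complexes is put together from products of both genomes. Complex II is encoded by nuclear genes alone. In macrophages the balance between the chain and glycolysis is known to shift with activation, and mature neutrophils are known for their few mitochondria.

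After filtering and removal of doublets, 13624 cells remained in replicate 1 and 7409 in replicate 2. The median cell had 4975.5 and 5612 UMIs (unique molecular identifiers, 1 for each captured transcript). Members accounted for 1982630 and 1075595 of those UMIs. The members were kept out of the clustering, and classes were named from marker genes: microglia-like (6113 and 4785 cells), macrophage-like (4527 and 548), neutrophil-like (688 and 570), cycling-like (594 and 195), monocyte-like (458 and 448), dendritic-like (244 and 209), fibroblast-like (153 and 94) and T/NK-like (139 and 96). The libraries therefore differed most in their macrophage-like share, 33.2% against 7.40% of the cells. Itgam, which encodes CD11b, was at 377 and 402 CPM (a share of all UMIs of the class, on a scale where 21268 CPM is 2.13%) in microglia-like cells, and at 24.9 and 9.66 CPM in fibroblast-like cells. Cd3e, excluded by the sort, was at 191 and 286 CPM in the T/NK-like class. Both classes therefore go against the gate, and microglia-like cells, 44.9% and 64.6% of the cells, outnumbered the macrophage-like cells that the series text names. 31 barcodes occurred among the cells of both libraries.

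Summed over all 94 features, the members made up between 1.73% and 3.23% of the UMIs of a class. The fibroblast-like class stood highest, at 32341 CPM in replicate 1 and 31250 CPM in replicate 2, followed by the cycling-like class at 29894 and 27110 CPM and the macrophage-like class at 27714 and 24839 CPM. The ranges of those last classes overlapped, with the cycling-like class the higher within each library. Below them were the monocyte-like class (23615 and 22461 CPM), the T/NK-like class (22581 and 23517 CPM) and the dendritic-like class (22695 and 22326 CPM), whose ranges overlapped, with the monocyte-like class above the dendritic-like class within each library. Microglia-like cells were at 21268 and 18026 CPM, and neutrophil-like cells, the lowest by mean, at 20047 and 17340 CPM, again with overlapping ranges, and with microglia-like cells the higher within each library. Replicate 1 was the higher library in 7 of the 8 classes, the T/NK-like class being the exception. Free RNA, read from barcodes under 100 UMIs, held 27679 and 20581 CPM of member transcripts, and its part in the class levels was not tested. In sums over cells, more transcripts per cell and more cells with the transcripts cannot be told apart.

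**Figure D1:**
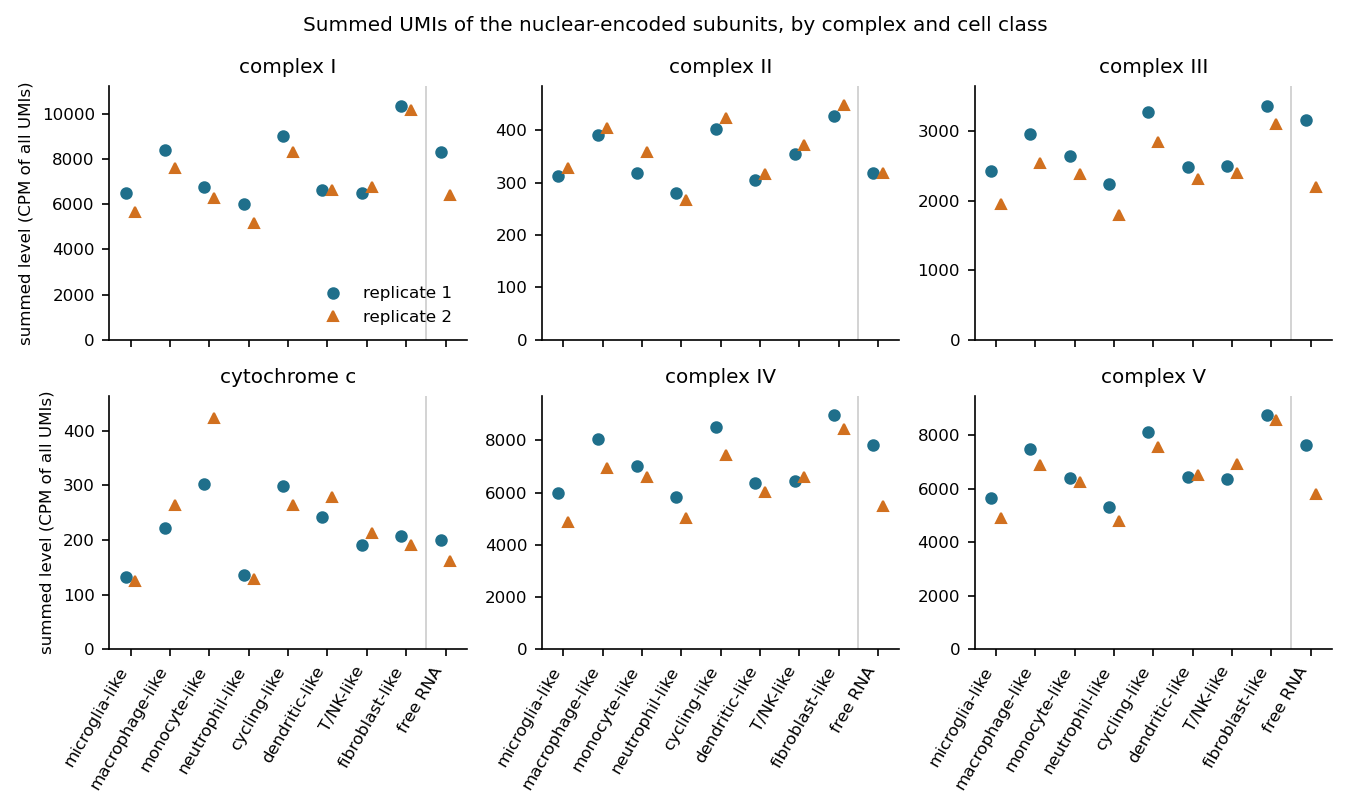
Summed level of the members of each complex (y axis, CPM of all UMIs of the class) in 8 cell classes and in free RNA (x axis), with replicate 1 as circles and replicate 2 as triangles. Among these 8 classes each of complexes I to V is highest in fibroblast-like cells, while cytochrome c is highest in monocyte-like cells at 302 and 423 CPM.

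The make-up of this total can be read as each complex's share of the member UMIs. Complex I gave 27.9% to 32.6% of the member UMIs over the 8 classes and both libraries, complex IV 27.0% to 29.7%, complex V 26.6% to 29.4% and complex III 9.95% to 11.4%. Complex II gave 1.32% to 1.81%. Cytochrome c, the small electron carrier encoded by Cycs, ranged from 0.613% in fibroblast-like cells to 1.88% in monocyte-like cells. Of the 89 members that passed the filter on low counts, 49 had their highest CPM in fibroblast-like cells in both libraries, 8 in cycling-like cells (among them the complex III subunits Uqcr10 and Uqcrq), and 3 in macrophage-like cells (Sdhb, Cox7a1 and Cox7b). Among the 8 classes, Cycs was the only member highest in monocyte-like cells in both libraries, and Uqcrh, the hinge subunit of complex III, was the only one for T/NK-like cells. The border-associated macrophage-like cluster 14 (241 and 17 cells) is not among the 8 classes. It had still more Cycs, 472 and 674 CPM.

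The comparison of macrophage-like with microglia-like cells sets the infiltrated cells named in the series text against the brain's resident macrophages. The 12 macrophage markers summed to 61199 and 43283 CPM in the former and 5724 and 2160 CPM in the latter, and the 12 microglia markers to 1907 and 2476 against 14280 and 20932 CPM. Respiratory chain transcripts were higher in macrophage-like cells across all complexes: of the 89 members tested, 68 rose and 2 fell at an adjusted p under 0.05 (edgeR quasi-likelihood test, Benjamini-Hochberg adjustment over 10915 genes), against 19.8% of all genes tested called higher and 21.9% called lower. The median log2 difference of the members was 0.69 (0.72 in replicate 1 and 0.67 in replicate 2), while that of all genes tested was -0.04. Fold changes are given relative to TMM scaling, which assumes that most genes do not change. Scaled to total UMIs instead, the median of all genes moved to -0.37 and that of the members to 0.37, 38 of the 68 were still called and all 68 kept their sign. On that scale 5 members were called lower (Cox6a2, Ndufaf7, Atp5s, Cox7a2l and Ndufa9). Over all 10915 genes 1180 were then called higher and 3821 lower. Higher calls made up 23.6% of all calls, against 47.5% with TMM.

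**Figure D2:**
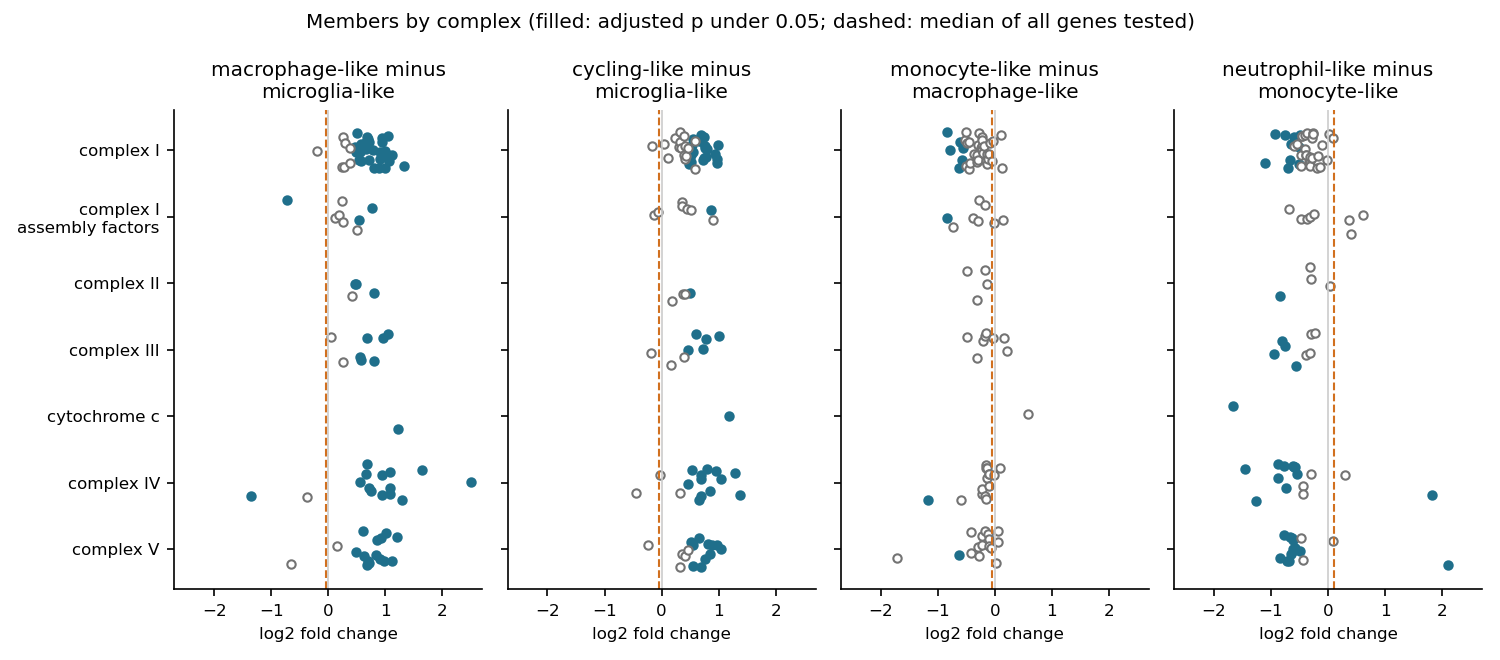
Log2 fold change (x axis) of each tested member, grouped by complex (y axis), in 4 comparisons of cell classes; filled points passed an adjusted p of 0.05, open points did not, and the dashed line is the median of all genes tested. Ndufa4l2 is left out because its UMIs come almost all from fibroblast-like cells. In macrophage-like minus microglia-like cells the members center on 0.69 and the dashed line on -0.04.

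In complex I, 29 of 36 members rose and none fell. Ndufb6, an accessory subunit of the membrane arm, was at 147 and 135 CPM in macrophage-like cells and at 80.4 and 61.6 CPM in microglia-like cells, without overlap (log2 fold change 1.32 ± 0.17 SE, edgeR adjusted p = 1.31e-05, higher in 2 of 2 libraries). Ndufc1, another small membrane subunit, was at 332 and 247 against 194 and 140 CPM, a log2 fold change of 1.12 ± 0.18. Complex I holds core subunits, which carry out electron transfer, and accessory subunits around them; the difference between these groups was not tested. Of the 29 accessory subunits 26 rose, with a median log2 fold change of 0.71, and of the 7 nuclear-encoded core subunits 3 rose (Ndufs7, Ndufv1 and Ndufv2), with a median of 0.38. Ndufa9, an accessory subunit near the ubiquinone site, had a log2 fold change of -0.19 ± 0.15 and was at 41.1 and 51.7 CPM in macrophage-like against 60.6 and 71.0 CPM in microglia-like cells.

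In complex II, 3 of 4 subunits rose. The iron-sulfur subunit Sdhb was at 217 and 222 CPM in macrophage-like cells and 159 and 154 CPM in microglia-like cells (log2 fold change 0.81 ± 0.16, edgeR adjusted p = 0.000598). The membrane anchors Sdhc and Sdhd had log2 fold changes of 0.48 ± 0.15 and 0.47 ± 0.18. Sdha, the flavoprotein that oxidizes succinate, had 55.1 and 60.3 against 49.7 and 59.3 CPM, overlapping ranges, and a log2 fold change of 0.41 ± 0.17 that did not pass (edgeR adjusted p = 0.0693). In complex III, 6 of 8 rose. Uqcrh, at 476 and 439 CPM against 580 and 525 CPM, had a log2 fold change of 0.05 ± 0.16, and the core protein Uqcrc2 had 0.25 ± 0.18.

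Cycs, which carries electrons between complexes III and IV and is also known as a trigger of apoptosis once released, was at 223 and 265 CPM in macrophage-like cells and at 133 and 125 CPM in microglia-like cells. The groups did not overlap, and the log2 fold change was 1.23 ± 0.19 (edgeR adjusted p = 0.000102). In complex IV, 13 of the 16 tested members rose and 1 fell. Cox5a, a matrix-side subunit, was at 598 and 468 CPM in macrophage-like cells against 298 and 243 CPM (log2 fold change 1.30 ± 0.20). Cox7a1, the isoform of subunit VIIa known from heart and skeletal muscle, had the largest change among the members called, 13.9 and 11.8 CPM against 3.94 and 1.82 CPM (log2 fold change 2.51 ± 0.24, 5.70-fold, edgeR adjusted p = 1.21e-06), at a low level. Cox7a2l, which holds complexes III and IV together in supercomplexes, did not pass on this scale, with 154 and 162 CPM against 231 and 284 CPM and a log2 fold change of -0.37 ± 0.18.

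In complex V, 14 of the 16 tested members rose. All 5 subunits of the catalytic F1 head passed, with log2 fold changes from 0.49 for Atp5c1 to 0.90, as did all 7 stalk and membrane subunits outside the c-ring, from 0.67 to 1.11 (Atp5k). The c-ring, which turns as protons pass, is encoded by 3 genes that give the same mature protein. Atp5g1 was at 590 and 499 CPM against 340 and 255 CPM (log2 fold change 1.2 ± 0.16), and Atp5g3 at 260 and 224 against 167 and 133 CPM (1.01 ± 0.19). Atp5g2 was at 756 and 651 against 838 and 740 CPM, with a log2 fold change of 0.16 ± 0.17 that did not pass.

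Nuclear genes of the chain are known to be driven by a small set of factors, among them NRF-1, YY1, ETS proteins (as GABP), CREB and the estrogen-related receptors, so their recognition letters were counted in the promoters. RefSeq promoters (GRCm38.p6) were found for 75 of the 93 member symbols, 80 promoters in all, each reaching from 250 bases before to 50 bases after the start. On either strand, the NRF-1 core GCATGCGC was present in 13 of 80 member promoters (16.2%) and in 2.71% of all 32851 promoters of that length. The YY1 core AAGATGGCG was in 8 (10.0%, against 1.40%), the cyclic AMP response element TGACGTCA in 5 (6.25%, against 1.79%), the ETS core CCGGAAGT in 5 (6.25%, against 3.89%) and the estrogen-related receptor element TCAAGGTCA in 2 (2.5%, against 0.423%). A match describes letters and not binding. The 250 bases before the start are shown for 3 members, read 5′ to 3′ on the gene's strand with matches in capitals: Cycs, at chr6:50566570-50566819 on the minus strand, with the NRF-1 core 60 and the cyclic AMP response element 169 bases before the start; Cox6a1, the widely expressed partner of the muscle isoform Cox6a2, at chr5:115348959-115349208 on the minus strand, where the NRF-1 letters overlap on both strands; and Cox7a1, at chr7:30183921-30184170 on the plus strand, which holds none of the 5 motifs in this window.
Cycs: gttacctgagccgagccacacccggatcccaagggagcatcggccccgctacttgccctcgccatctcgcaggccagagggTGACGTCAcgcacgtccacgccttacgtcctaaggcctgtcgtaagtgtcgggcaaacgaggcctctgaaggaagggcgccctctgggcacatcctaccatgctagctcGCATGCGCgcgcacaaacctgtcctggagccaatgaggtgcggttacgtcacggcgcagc
Cox6a1: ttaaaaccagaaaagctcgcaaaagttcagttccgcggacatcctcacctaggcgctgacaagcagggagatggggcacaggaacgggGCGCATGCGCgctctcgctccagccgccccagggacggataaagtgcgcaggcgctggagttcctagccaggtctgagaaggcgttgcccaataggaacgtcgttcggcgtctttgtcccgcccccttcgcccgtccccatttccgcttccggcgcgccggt
Cox7a1: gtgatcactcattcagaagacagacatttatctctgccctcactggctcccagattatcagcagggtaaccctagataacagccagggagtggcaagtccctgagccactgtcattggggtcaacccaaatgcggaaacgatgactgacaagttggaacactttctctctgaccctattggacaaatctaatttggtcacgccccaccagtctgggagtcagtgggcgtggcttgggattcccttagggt

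The nuclear subunits were set beside those encoded by mitochondrial DNA. Of those 13 subunits, none rose (0 also at an unadjusted p under 0.05) and 1 fell in macrophage-like cells, with a median log2 difference of -0.19. The gene that fell was mt-Nd2, a complex I core subunit, at 422 and 403 CPM against 686 and 729 CPM (log2 fold change -0.45 ± 0.17, edgeR adjusted p = 0.0379). The ratio of nuclear-encoded to mitochondrially encoded UMIs was 1.47 and 1.60 in macrophage-like cells and 0.960 and 0.959 in microglia-like cells, without overlap. It was 1.27 and 1.46 in monocyte-like, 1.46 and 1.38 in cycling-like, and 0.937 and 0.938 in fibroblast-like cells, whose members were highest but whose mitochondrial transcripts were highest too (34506 and 33312 CPM). In free RNA the ratio was 0.735 and 0.386.

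The mitochondrial ribosomal proteins, which translate the mitochondrial transcripts, were also higher: 55 of 77 tested rose and none fell (median log2 difference 0.60), Mrpl33 and Mrps25 most, with log2 fold changes of 1.34 ± 0.23 and 1.13 ± 0.16. Of 38 assembly factors outside the members 15 rose and 1 fell (median 0.27). Coa4, which helps complex IV assembly, rose (1.17 ± 0.17) and Higd2a, an assembly factor of supercomplexes, fell (-0.88 ± 0.15). Of 18 citrate cycle genes 7 rose and 1 fell. Mdh2, the mitochondrial malate dehydrogenase, had a log2 fold change of 0.85 ± 0.19, and Suclg2, the GTP-forming succinyl-CoA ligase subunit, of -1.35 ± 0.21. Of 16 glycolysis genes 11 rose and 2 fell. Pgam1 rose by 1.71 ± 0.24, while hexokinase 2 (Hk2) was lower, with 83.1 and 89.9 CPM against 352 and 370 CPM. Of 13 regulators of mitochondrial genes none rose and 1 fell, Myc, with a log2 fold change of -2.18 ± 0.20. Of 16 genes for proton and superoxide handling 6 rose, Prdx5 and Sod2 most (1.27 ± 0.25 and 1.18 ± 0.21). Of 82 cytosolic ribosomal proteins 10 rose and 1 fell (median 0.16). All of these medians stand beside -0.04 for all genes tested.

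Each class was also read cluster by cluster, as a description without a test. Within the microglia-like class, cluster 3, led by Ch25h, Cst7 and Ctla2a, had member levels of 26232 and 24465 CPM. It detected 7 of the 12 microglia markers, where each of the others detected 12. The other 5 lay between 14901 CPM (cluster 6, led by Egr1, Klf2 and Txnip) and 20118 CPM (cluster 13, led by Ifit3, Ifit2 and Ccl12), all below cluster 3 in both libraries. Within the macrophage-like class, cluster 2 (led by Gpnmb, Fabp5 and Lyz2) had 28605 and 25769 CPM and cluster 5 (led by Arg1, Hmox1 and Pf4) 29830 and 26344 CPM. Cluster 8, led by Fbxo32, Cxcr4 and Apoe, had 20320 and 18536 CPM, near the microglia-like clusters, and its name rests on 5 of 12 detected macrophage markers. Its ratio of nuclear to mitochondrial UMIs was 0.895 and 0.986, against 1.60 and 1.64 in cluster 2 and 1.54 and 1.82 in cluster 5. Without cluster 8, 73 members rose in macrophage-like cells and 2 fell, with a median log2 difference of 0.91. Over all genes 2889 of 10916 then rose and 1989 fell, with a median of 0.10. Without cluster 3 in the microglia-like class, 76 members rose and 2 fell, with a median of 1.03. Of all 10931 genes tested then, 3019 rose and 2222 fell, with a median of 0.09. In the main run 2159 of 10915 genes rose, 2390 fell and the median was -0.04.

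**Figure D3:**
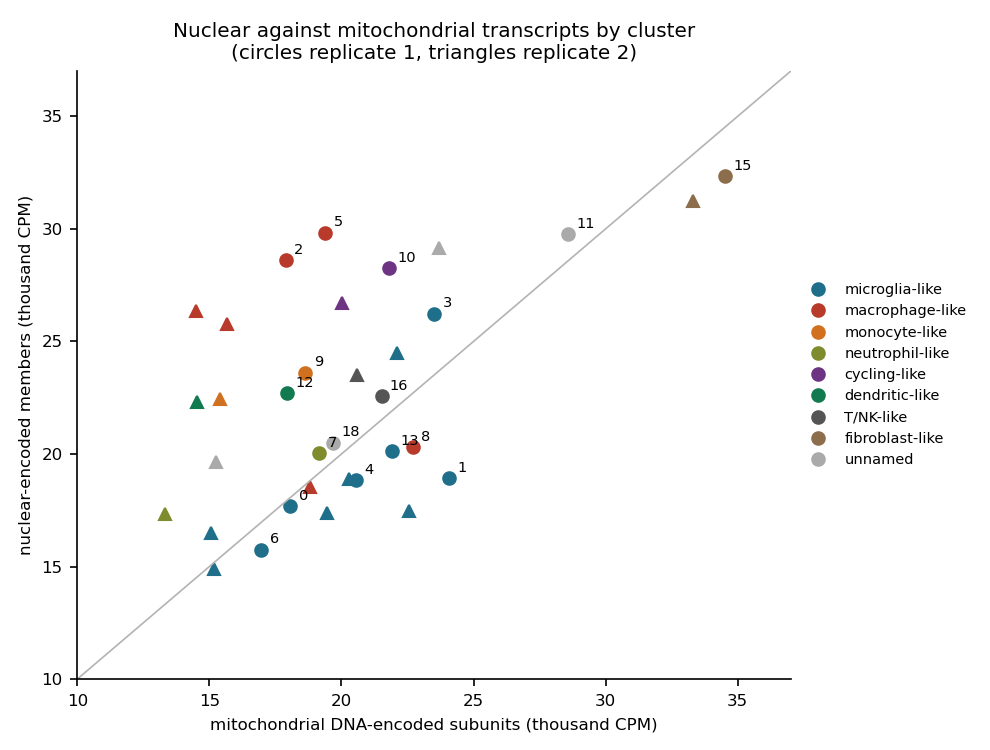
Summed level of the nuclear-encoded members (y axis, CPM divided by 1000) against the 13 mitochondrially encoded subunits (x axis, CPM divided by 1000) in clusters with at least 50 cells in each library; colors give the class, circles replicate 1 (numbered by cluster) and triangles replicate 2, and the line marks equal levels. Macrophage-like clusters 2 and 5 lie well above the line, while cluster 8 lies with the microglia-like clusters near or under it.

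Single cells were then compared after each was thinned to 1000 UMIs, which sets all cells to 1 depth. The median cell of cluster 3 had 25 member UMIs per 1000 in replicate 1 and 23 in replicate 2. Cells of cluster 6 had a median of 15 and 14, with upper quartiles of 18 and 17, below the lower quartiles of cluster 3 (20 and 18). The upper quartiles of clusters 0, 1, 4 and 13 ran from 19 to 23, at or above those of cluster 3's lower quartiles in each library. Macrophage-like clusters 2 and 5 had medians of 28 and 25 and of 28 and 26, and cluster 8 had 19 and 17. Cluster 11 was led by Cox6a2, Stmn1 and Cst7 and detected 10 of the 12 microglia markers, but stayed unnamed because none of them was among its 10 leading genes while the cycling marker Stmn1 was. Its cells had medians of 30 and 28 member UMIs per 1000, at a low depth (2127 UMIs in replicate 1 against 4975.5 over all cells). The median depth was also lower in microglia-like cells (3609 and 5142 UMIs) than in macrophage-like cells (6618 and 8788 UMIs). With every cell thinned to 1000 UMIs, 56 of the 68 members that rose were called again and 1 of the 2 that fell. Over all 6549 genes tested then, 1191 rose and 1091 fell.

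**Figure D4:**
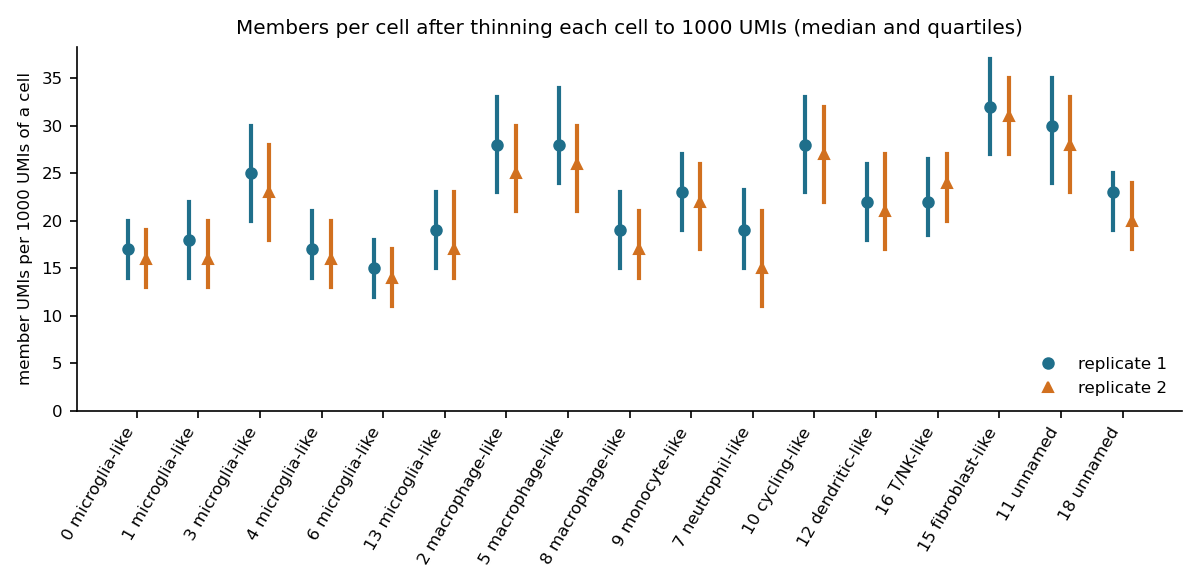
Member UMIs among 1000 UMIs of a cell (y axis), as the median (points) and the quartiles (bars) over the cells of each cluster (x axis, numbered and with its class), for replicate 1 (circles) and replicate 2 (triangles). Medians of the plotted clusters run from 14 in microglia-like cluster 6 to 32 in fibroblast-like cluster 15. The median of cluster 3 is above those of the other microglia-like clusters in each library, while its quartiles overlap those of clusters 1, 4 and 13.

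Cycling-like cells were compared with microglia-like cells. Of the 89 members tested, 51 rose and none fell, against 13.8% of all genes tested called higher and 10.7% lower. At an unadjusted p under 0.05, 1 member was lower, and DESeq2 called 1 lower and 63 higher. Over all genes DESeq2 called 1050 lower and 1560 higher. The median log2 difference was 0.55 (0.51 and 0.61 in the 2 libraries), beside -0.04 for all genes. By complex, 20 of 36 complex I members rose, 1 of 4 in complex II (Sdhb, 0.50 ± 0.16), 5 of 8 in complex III, 12 of 16 in complex IV and 11 of 16 in complex V. Cycs was at 299 and 265 CPM against 133 and 125 CPM (log2 fold change 1.18 ± 0.19, edgeR adjusted p = 0.00037). Atp5o, which links the F1 head to the peripheral stalk, was at 236 and 252 against 124 and 118 CPM (1.05 ± 0.17), and Uqcr10, a small complex III subunit, at 647 and 505 against 364 and 235 CPM (1.0 ± 0.18). All 7 stalk and membrane subunits of complex V rose, from 0.56 to 1.05. None of the 13 mitochondrially encoded subunits passed (median 0.02), while 39 of 77 mitochondrial ribosomal proteins rose, Mrpl51 most (1.37 ± 0.17).

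The cycling-like class mixed origins. Its cells held 25139 and 5375 CPM of the 12 macrophage markers and 8087 and 14307 CPM of the 12 microglia markers, with no marker of either list at 0, and the part of this mix in the result was not tested. Cluster 17, with 202 and 10 cells, had member levels of 32533 and 31701 CPM, and cluster 10, with 392 and 185 cells, had 28244 and 26728 CPM. From cluster 10 alone 35 members rose and none fell. Without the library as a block 31 rose, and without cluster 3 among the microglia-like cells 74 did. In the same order, 1065 of 10857, 1088 of 10915 and 2100 of 10931 genes tested were called higher. The main run called 1502 of 10915 genes higher.

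Monocyte-like cells, which are known as the blood precursors of infiltrating macrophages, were compared with macrophage-like cells. Most members did not pass: 9 of 89 fell and none rose, against 5.34% of all genes tested called lower and 7.47% called higher. At an unadjusted p under 0.05, 22 were lower and 1 was higher. The median log2 difference was -0.22, beside -0.05 for all genes, and the libraries differed, with -0.40 in replicate 1 and -0.03 in replicate 2. Complex I gave 6 of the 9. Ndufa12, an accessory subunit of the matrix arm, was at 114 and 78.0 CPM against 169 and 169 CPM (log2 fold change -0.83 ± 0.19, edgeR adjusted p = 0.00945), and Ndufa5, another, at 118 and 86.5 against 189 and 161 CPM (-0.79 ± 0.17). The others were Ndufs5, Ndufs7, Ndufa10 and Ndufc1, from -0.56 to -0.63, together with the assembly factor Ndufaf4 (-0.83 ± 0.23), Atp5g1 (-0.63 ± 0.16) and Cox7a1 (-1.17 ± 0.32). Cycs had the highest value, 302 and 423 CPM in monocyte-like against 223 and 265 CPM in macrophage-like cells, with no overlap and a log2 fold change of 0.59 ± 0.19 that missed the threshold (edgeR adjusted p = 0.0548).

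The number of calls in this comparison depended on how it was made. Without the library as a block 2 members fell (Ndufa12 and Ndufaf4), DESeq2 called 16 lower and 1 higher, and at the coarser clustering resolution none of the 9 was called. The monocyte-like class at that resolution was a cluster of 2487 cells led by Arg1, Hmox1 and Clec4n, beside 906 cells in the main run. Without macrophage-like cluster 8, 17 fell. Calls lower over all genes were 226 without the block, 591 by DESeq2 and 823 without cluster 8, beside 583 in the main run. The monocyte-like class held 33321 and 34398 CPM of the macrophage markers, none at 0, beside 5474 and 9770 CPM of the 8 monocyte markers, and the part of this overlap in the result was not tested. Around the members, 17 of 77 mitochondrial ribosomal proteins fell and 1 rose (median -0.45), and 5 of 16 glycolysis genes rose and none fell, Pfkp and the lactate exporter Slc16a3 most (1.76 ± 0.36 and 1.71 ± 0.25). None of the 13 mitochondrially encoded subunits passed. Of 13 regulators of mitochondrial genes 2 rose and none fell, Myc and Hif1a. The larger rise was that of Hif1a, the oxygen-sensing factor, by 1.42 ± 0.24, with 457 and 529 CPM against 150 and 225 CPM.

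Neutrophil-like and monocyte-like cells, both named by markers of blood myeloid cells, were compared next. Many neutrophil-like barcodes also carried microglia transcripts, as given below. Of the 89 members, 38 fell and 2 rose in neutrophil-like cells, against 10.8% of all genes tested called lower and 10.5% called higher. The median log2 difference was -0.47 (-0.40 and -0.53), beside 0.10 for all genes. The falls lay in complex V (12 of 16), complex IV (10 of 16), complex III (4 of 8) and complex I (10 of 36), with Sdhb for complex II. Cycs was at 136 and 129 CPM against 302 and 423 CPM (log2 fold change -1.67 ± 0.20, edgeR adjusted p = 9.75e-05). Ndufs4, an accessory subunit needed for a stable complex I, was at 69.8 and 82.4 against 126 and 156 CPM (-1.10 ± 0.21), and Uqcrb at 310 and 227 against 478 and 407 CPM (-0.94 ± 0.17). The members that rose were Cox6a2, at 57.3 and 25.8 against 17.6 and 4.45 CPM (1.82 ± 0.47, edgeR adjusted p = 0.0125), and Atp5s, a coupling factor of the ATP synthase, which was at 5.59 and 4.83 against 2.27 and 0.318 CPM. Atp5s was at a low level. It lost its call at the coarser clustering resolution, with a stricter cell filter and in neutrophil-like cells with few microglia transcripts.

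Neutrophil-like sums held many transcripts of other cells. The 12 microglia markers summed to 11652 and 10190 CPM in this class, against 14280 and 20932 CPM in microglia-like and 3842 and 1887 CPM in monocyte-like cells, with none at 0. Only 119 of 688 and 330 of 570 neutrophil-like cells had under 0.5% of their UMIs from these markers. In those cells alone 9 of 89 members fell and none rose, while of 10259 genes tested 654 fell and 492 rose. The member median was -0.34, beside -0.11 for all genes. Cycs was among the members that fell (log2 fold change -1.21), and the value for Cox6a2 was 0.66 with an edgeR adjusted p of 0.677. Scaled to total UMIs, 17 members fell and 3 rose. Over all genes 688 then fell and 1755 rose, and higher calls went from 49.2% to 71.8% of all calls. Of the other lists, glycolysis had 9 of 16 genes lower and 1 higher. Also lower were 7 of 16 genes for proton and superoxide handling, 21 of 77 mitochondrial and 13 of 82 cytosolic ribosomal proteins. Of 38 assembly factors outside the members 4 fell, beside 10.8% of all genes tested called lower. None rose in these last 4 lists. Of 18 citrate cycle genes 2 rose and 1 fell, and of 13 regulators of mitochondrial genes 1 rose and 1 fell. Of the mitochondrially encoded subunits, mt-Co1 and mt-Co2, the catalytic core of complex IV, fell by 0.48 and 0.55 on the log2 scale.

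Several subunits of complex IV exist as isoforms known from particular tissues, and their levels were read cluster by cluster. Cox6a2 (ENSMUSG00000030785, chr7:128205435-128206387, minus strand in GENCODE vM21 on GRCm38), known from heart and skeletal muscle, was detected in microglia-like cells at 47.6 and 42.6 CPM and in macrophage-like cells at 20.6 and 8.39 CPM. It fell in the latter (log2 fold change -1.36 ± 0.35, 2.56-fold, edgeR adjusted p = 0.00546), with -0.82 in replicate 1 and -2.08 in replicate 2, and it lost the call without the library block (adjusted p = 0.105) and without cluster 2 (0.0786). In macrophage-like cluster 5 it was at 47.1 CPM in replicate 1 and 6.62 CPM in replicate 2. Its highest values among clusters of at least 50 cells in each library were in cluster 11, at 96.0 and 102 CPM, and in the interferon-gene cluster 13, at 85.2 and 80.7 CPM. It was at 3.33 and 1.70 CPM in fibroblast-like cells and at 33.8 and 37.6 CPM in free RNA.

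The Cox6a2 locus lies opposite the end of Itgad, an integrin gene on the other strand, and the sources used here do not say whether reads were counted by strand. Itgad had 0 to 6 UMIs in each of 48 sums of cluster and library, 1.04 CPM at most, so there were few Itgad UMIs beside the 2650 and 1808 UMIs of Cox6a2. Counted per cell, 13.6% (95% exact binomial interval 12.8% to 14.5%) and 14.6% of microglia-like cells and 9.10% and 5.66% of macrophage-like cells had a Cox6a2 UMI, against 1.96% and 3.19% of fibroblast-like cells. With cells thinned to 1000 UMIs these shares were 4.02% and 3.24%, and 1.41% and 1.09%, in microglia-like and macrophage-like cells. The common isoform Cox6a1 went the other way, with 185 and 145 CPM in microglia-like and 233 and 210 CPM in macrophage-like cells (log2 fold change 0.75 ± 0.17, edgeR adjusted p = 0.00212).

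**Figure D5:**
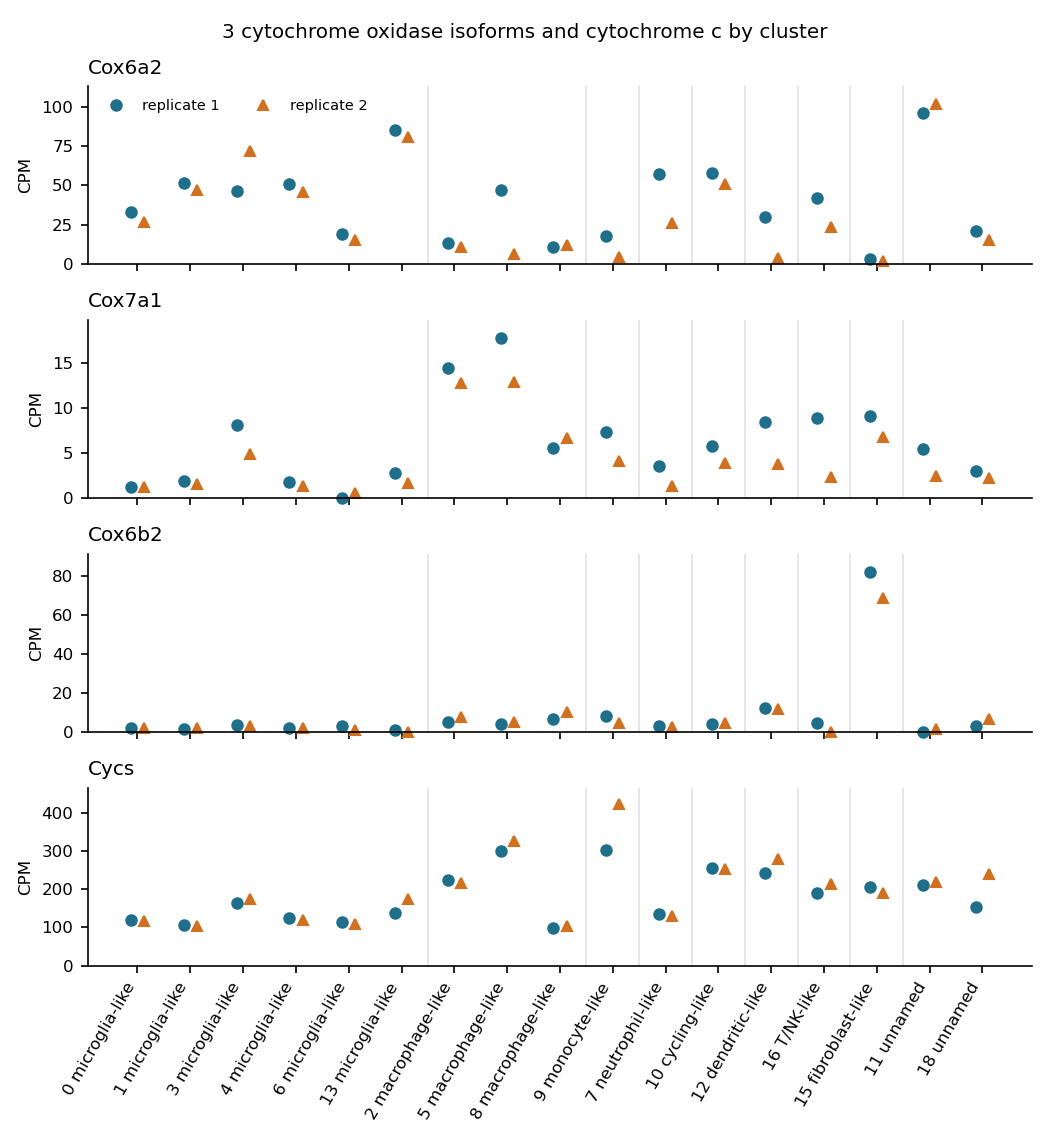
Level (y axis, CPM) of the complex IV isoforms Cox6a2, Cox7a1 and Cox6b2 and of cytochrome c (Cycs) in each cluster (x axis, numbered and with its class), for replicate 1 (circles) and replicate 2 (triangles). Clusters with fewer than 50 cells in a library are left out, and among those plotted Cox6a2 is highest in clusters 11 and 13, Cox7a1 in macrophage-like clusters 2 and 5, Cox6b2 in fibroblast-like cluster 15 and Cycs in monocyte-like cluster 9.

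Cox7a1 (chr7:30184144-30186078, plus strand) was high in other clusters, at 14.5 and 12.8 CPM in macrophage-like cluster 2 and 17.8 and 12.9 CPM in cluster 5, but 5.52 and 6.70 CPM in cluster 8. Microglia-like clusters had at most 2.81 CPM, except cluster 3 with 8.16 and 4.89 CPM. The common isoform Cox7a2 was at 560 and 499 CPM in macrophage-like and 352 and 272 CPM in microglia-like cells, a log2 fold change of 1.09 ± 0.18. Cox6b2, known as the testis isoform of subunit VIb, was at 82.3 and 68.8 CPM in fibroblast-like cells, and the class next to it was dendritic-like at 12.2 and 11.7 CPM. It also rose in macrophage-like over microglia-like cells (log2 fold change 1.65 ± 0.24), at 5.15 and 6.39 against 2.37 and 2.01 CPM. Cox6b1 was at 890 and 761 CPM in fibroblast-like cells and 443 to 902 CPM over all classes.

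Ndufa4l2 (chr10:127514967-127517154), an Ndufa4 relative known to respond to low oxygen and to mark mural cells of brain vessels, was at 178 and 166 CPM in fibroblast-like cells. There 103 of 153 cells (67.3%) and 76 of 94 cells (80.9%) had at least 1 UMI. Over the other classes it was at 0 UMIs or at most 0.354 CPM, and no UMI was seen in 6113 and 4785 microglia-like cells. Mural markers summed to 1306 and 1614 CPM in the same class beside 10959 and 11978 CPM of fibroblast markers, with none of either list at 0. Ndufa4 itself was at 859 and 866 CPM there, against 503 and 395 CPM in microglia-like cells. The lung isoform Cox4i2 had 35 and 30 UMIs in all cells, while Cox4i1 was at 567 to 869 CPM over the classes. Cox8b had 23 and 20 UMIs, all of them in unnamed cluster 20 (led by Ttr, Ptgds and Enpp2; 36 and 20 cells), and Cox7b2 and Cox8c had none. With Cox4i2 and a second Atp5o identifier that had no UMI, these were the 5 members that did not pass the filter on low counts.

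The complex I assembly factors were taken apart from the subunits they join. In macrophage-like over microglia-like cells Ndufaf8 (0.76 ± 0.18) and Ndufaf3 (0.53 ± 0.19) rose and Ndufaf7, a methyltransferase of complex I assembly, fell, with 9.89 and 13.2 CPM against 21.2 and 26.9 CPM (log2 fold change -0.73 ± 0.15, edgeR adjusted p = 0.00126). The other 5 had values from 0.11 to 0.51 and did not pass. Ndufaf2 rose in cycling-like cells, at 44.6 and 37.4 CPM against 24.2 and 22.0 CPM (0.87 ± 0.19, edgeR adjusted p = 0.00388), and was at 64.0 and 64.2 CPM in fibroblast-like cells. Ndufaf4 was at 15.9 and 11.1 CPM in monocyte-like cells and at 23.3 and 23.0 CPM in macrophage-like cells. Ndufaf1, Ndufaf5 and Ndufaf6 passed in none of the 4 comparisons.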

How the data were processed

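The deposited matrices hold raw UMI counts that Cell Ranger 4 wrote, per the file headers; the submitters' processing notes name Cell Ranger 4.0.0, STAR 2.5.1b and Seurat 4. Barcodes with at least 1000 UMIs, 500 genes and at most 10% mitochondrial UMIs were kept (15050 and 7910, from libraries of 101893367 and 62850768 UMIs). Doublets marked by scrublet were removed (1426); in replicate 2 it marked none, and the 501 top-scoring cells were taken out instead. Cells were clustered with scanpy 1.11.5 and leidenalg 0.10.2 (2000 variable genes per library without the members and lists, 30 components, 15 neighbours, resolution 0.8, seed 1), which gave 24 clusters, named from 17 marker lists. The naming thresholds were set after the clusters were known; 7 stayed unnamed, and border-associated macrophage-like cells (241 and 17) were too few for the fit.

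Counts were summed per library and class and tested with edgeR 4.0.16 (TMM, filterByExpr, glmQLFit, glmQLFTest) in 1 fit of 16 sums. The library was a block since both sides of a comparison come from the same libraries, and 7 residual degrees of freedom remained. Genes used for clustering were not tested. The members and lists were barred from that use, so the shares over all genes lack variable genes while no member was dropped for being variable. DESeq2 1.42.0 was an alternative. Named members were the 8 highest and 8 lowest called fold changes of a comparison, succinate dehydrogenase, Cycs, isoform groups and Ndufaf genes; other names were chosen after their values were seen. Members, lists and the grouping of subunits by role were chosen with earlier results of these data known. The fit was tested on simulated data, in which all classes shared a profile outside the changed genes and the libraries did not differ. That test cannot speak for the scaling between classes or the spread between libraries. Of the 94 members, 41 overlap another gene in GENCODE vM21. Intervals cover counting error only. The values of 1 member are not reported here.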

Additional observations from a re-analysis of the deposited data

How the results depend on the processing

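All 68 members called higher in macrophage-like cells kept their sign in every setting that fitted them. The call counts and medians that moved beyond the spread between libraries or by more than 1.5 times are given below. Some that did not move so far stand beside them, among them every median from leaving out a library. Leaving out a library, with no test, gave member medians of 0.67 to 0.72 for macrophage-like against microglia-like cells, -0.40 to -0.03 for monocyte-like against macrophage-like, 0.51 to 0.61 for cycling-like against microglia-like and -0.53 to -0.40 for neutrophil-like against monocyte-like. The cause of each shift was not tested. Resolution 0.4 also changed which cells a class held. Its monocyte-like class was 1 cluster of 2487 cells led by Arg1, Hmox1 and Clec4n. The main run had 906 monocyte-like cells, led by Plac8, Chil3 and Rsad2. The largest cycling-like cluster at 0.4 had 2799 cells, was led by Ch25h, Stmn1 and Birc5, and detected 5 of 10 cycling markers. Comparisons of these classes at 0.4 thus set partly other cells against each other.

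Macrophage-like against microglia-like: on total UMIs 38 members were called higher and 5 lower, with a median of 0.37 beside -0.37 for all genes. Over all genes 1180 were then called higher and 3821 lower. The median was 0.85 with no filter on low counts, 0.86 at resolution 0.4, 0.62 with doublets kept, 0.82 with the stricter cell filter, 0.76 with thinned cells and 0.75 without mitochondrial and ribosomal protein UMIs. Medians of all genes in these settings ran from -0.06 to 0.03. Cluster changes, chosen after seeing the data, gave 0.74 without cluster 2, 0.91 without cluster 8 and 1.03 without cluster 3. The medians of all genes were then 0.08, 0.10 and 0.09. The count called lower was 1 without cluster 2 and with thinned cells. Over all genes 1705 and 1091 were then called lower, beside 2390 as reported.

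Without the replicate block, 59 members were higher and 1 lower in macrophage-like cells, 31 higher in cycling-like cells, 2 lower in monocyte-like cells, and 1 higher and 18 lower in neutrophil-like cells. Over all genes, in the same order, calls were 1721 higher and 1969 lower, 1088 higher, 226 lower, and 822 higher and 783 lower. As reported they were 2159 and 2390, 1502, 583, and 1144 and 1183. The libraries pair the sums because both classes of a comparison come from 1 library.

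Monocyte-like against macrophage-like: 1 member was called higher by DESeq2, at resolutions 0.4 and 1.2, with doublets kept and without cluster 5. In these settings 402 to 987 of all genes were called higher, beside 815 as reported. The count called lower was 16 by DESeq2, 1 at resolution 0.4, 5 with doublets kept, 2 with thinned cells, 5 without cluster 2 and 17 without cluster 8. In the same order, calls lower over all genes tested were 591, 360, 641, 188, 343 and 823, beside 583 as reported. With doublets kept the member median was -0.10, beside -0.15 for all genes. Without cluster 2 the member median was -0.11, beside -0.08 for all genes. At resolution 0.4 the values of Ndufaf4 and Atp5g1 reversed, to 0.04 and 0.03.

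Cycling-like against microglia-like: DESeq2 called 1 member lower, beside 1050 over all genes. The median was 0.73 at resolution 0.4, 0.63 with the stricter filter, 0.68 with thinned cells, 0.81 without cluster 3 and 0.47 from cluster 10 alone.

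Neutrophil-like against monocyte-like: on total UMIs 17 were lower, with a median of -0.24 beside 0.31 for all genes. Over all genes 688 were then lower, beside 1183 as reported. At resolution 0.4, 1 was higher and 60 lower (median -0.61), with the stricter filter 1 was higher, and with thinned cells 1 was higher and 13 lower (median -0.37). In the same order, calls over all genes were 1961 higher and 1634 lower, 755 higher, and 340 higher and 399 lower. Cells with few microglia transcripts, a choice made after seeing the data, gave 0 higher and 9 lower (median -0.34, beside -0.11 for all genes). There Cox6b2 and Cox7a2 reversed, to 0.43 and 0.06.

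Summed member levels without mitochondrial and ribosomal protein UMIs were 24577 CPM in microglia-like, 31835 in macrophage-like, 28222 in monocyte-like, 35066 in cycling-like and 22592 in neutrophil-like cells; monocyte-like cells at resolution 0.4 had 26287 CPM. Depth limits what low members can show: Cox7a1 rests on 747 and 179 UMIs over all cells.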
